A study of Mus musculus with 12 samples.

Results

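Klf2, Klf3, Klf4, Klf5, Klf6, Klf9 and Klf13 are mouse genes of the Kruppel-like factor (KLF) family, which encodes zinc finger transcription factors. They were taken from the deposited table by symbol, 7 genes of the 47643 in it, and their mRNA is described here in 12 libraries of embryonic stem (ES) cells that differ in Dicer, an RNase known for cutting the precursors of miRNAs and siRNAs. All cells were of the E14 ES cell line (129/Ola background, from the blastocyst). They were kept on gelatin in medium with 15% serum, 100 U/mL of the cytokine LIF and 1 µg/mL puromycin, so every group carried the drug and none grew without LIF. The 6 groups held 2 libraries each. WT and KO are the control line and the Dicer knockout. SOM, 41584, 41585 and 41589 are Dicer-complemented lines. The genotype given for 41584 is similar to WT, for 41585 it is no processing of either miRNAs or siRNAs, and for 41589 it is no siRNA processing. For SOM no processing is stated, so SOM stayed out of the pooled comparison below. What was deleted in KO, what was put back in each line and whether a line is 1 clone are not given in the labels used here.

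KLF proteins bind GC-rich stretches and CACCC boxes of promoters and enhancers through zinc fingers at their carboxyl end, and differ in the activators or repressors that their amino-terminal parts recruit. In mouse ES cells Klf2, Klf4 and Klf5 are known to overlap in sustaining self-renewal, with Klf4 fed by LIF through STAT3. miRNAs of the miR-290 family, which need Dicer, are abundant in these cells and pair through their seed with short sites in the 3' UTRs of target mRNAs.

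Counted reads per library ran from 5348401 to 10428509, and the 7 genes drew between 190 reads (Klf6) and 2426 reads (Klf4) in a library. Levels are in CPM, the counted reads of a gene scaled to a common library total with TMM factors. A gene is called where the Benjamini-Hochberg adjusted p of edgeR's quasi-likelihood test, over the 14629 genes tested, was under 0.05. The ± of a log2 fold is its standard error. Whether replicates stem from separate cultures is not labelled, so a p-value here reflects the spread between the sequenced libraries, which may be technical. Dicer1 lay at 197 and 214 CPM in WT and at 28.5 and 44 CPM in KO (log2 fold −2.50 ± 0.36, n = 2, edgeR quasi-likelihood test, adjusted p = 0.0015). It lay at 105 and 215 CPM in SOM, while 41584, 41585 and 41589 held between 27.8 and 55 CPM. The part of Dicer1 put back that these reads can see is not given, so the level does not measure the protein in those lines. Of 10 ES cell markers none was under 1 CPM throughout. Nanog lay between 558 and 817 CPM and Sox2 between 263 and 653 CPM. The 2 libraries of a group correlated at 0.935 (41584) to 0.983 (KO) on the log2 CPM scale.

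Klf4, an activator of the naive pluripotency programme and a reprogramming factor, had the highest level per length of the 7 genes in WT, SOM, 41584 and 41589. It is on the minus strand at chr4:55527143-55532466 (GRCm38). Klf4 read 375 and 250 CPM in WT, 253 and 208 in 41584, 247 and 179 in 41589 and 173 and 175 in SOM. In KO it read 53.8 and 51.7 CPM, and in 41585 it read 50.4 and 61.5. The 4 libraries of KO and 41585 therefore all lay under the lowest of the other 8, with no library between 61.5 and 173 CPM. Klf4 fell 5.92-fold in KO against WT (log2 fold −2.56 ± 0.27, n = 2 per group, adjusted p = 0.000285) and 4.11-fold in 41585 against 41584 (−2.04 ± 0.26, adjusted p = 0.00106). Both calls stood whichever library of the groups was left out. A fall in Klf4 per cell and a smaller share of Klf4-expressing cells cannot be told apart in such bulk libraries.

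**Figure D1:**
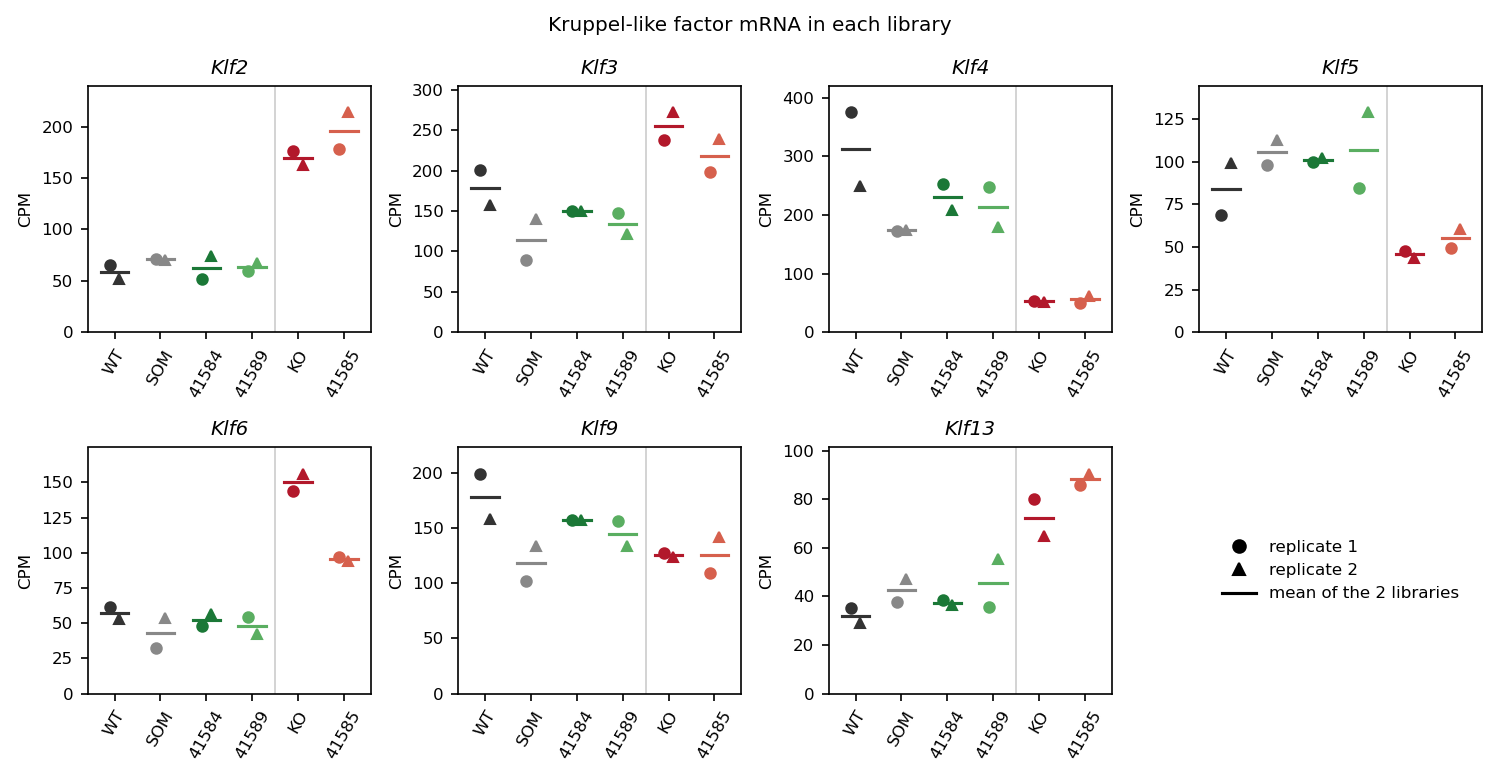
CPM of each KLF gene in each library. Circles and triangles are replicates 1 and 2, bars are the mean of the 2 libraries, and the thin vertical line sets KO and 41585 apart. Klf4 sits between 50.4 and 61.5 CPM in the 4 libraries of KO and 41585 and between 173 and 375 CPM in the other 8, and Klf2 shows the opposite order.

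Klf2, a paralog of Klf4 that is also known from endothelium and T cells, moved the other way. It lies on the plus strand at chr8:72319033-72321656. It read 65.6 and 51.6 CPM in WT, 51.4 and 73.8 in 41584, 59.5 and 66.9 in 41589 and 71.6 and 70.1 in SOM. In KO the values were 176 and 163 CPM, and in 41585 they were 178 and 214. The libraries of KO and 41585 were again all on one side, above the highest of the other 8 at 73.8 CPM. Klf2 rose 2.89-fold in KO against WT (log2 fold 1.53 ± 0.24, adjusted p = 0.00241) and 3.14-fold in 41585 against 41584 (1.65 ± 0.24, adjusted p = 0.00203). Its exons are 61.6% GC, and genes of like GC content tended to read higher in KO than in WT and in 41585 than in 41584 or WT. The 557 tested genes within 2 percentage points of its GC content had a median log2 fold of 0.53 in the first comparison, 0.96 in the second and 1.32 in 41585 against WT. With each library's trend on GC and length removed, Klf2 gave 1.02 in KO against WT (adjusted p = 0.107), 0.62 in 41585 against 41584 (adjusted p = 0.336) and 0.50 in 41585 against WT (adjusted p = 0.385), and none of these was a call. In KO and 41585 pooled against WT, 41584 and 41589 it remained one (0.95, adjusted p = 0.0161, against 1.57 ± 0.15 and 1.61e-05 before removal). Removal also moved Klf2 between groups other than KO and 41585, with no call before or after. Against WT it went from 0.28 to −0.30 in SOM, from 0.11 to −0.43 in 41589 and from 0.10 to −0.11 in 41584. Klf4, at 54.6% GC, gave −2.78 in KO against WT and −2.49 in 41585 against 41584 on the same footing, and kept its call in each.

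Klf2 and Klf4 moved in opposite directions, and their promoters are shown for that reason. The 300 bases around each RefSeq start (250 before and 50 after, GRCm38.p6) are chr8:72318812-72319111 on the plus strand for Klf2 and chr4:55532426-55532725 on the minus strand for Klf4. Capitals mark runs of CCNCNCCC on either strand, a form of the GC and CACCC boxes that KLF and SP proteins bind, with overlapping matches joined.
Klf2: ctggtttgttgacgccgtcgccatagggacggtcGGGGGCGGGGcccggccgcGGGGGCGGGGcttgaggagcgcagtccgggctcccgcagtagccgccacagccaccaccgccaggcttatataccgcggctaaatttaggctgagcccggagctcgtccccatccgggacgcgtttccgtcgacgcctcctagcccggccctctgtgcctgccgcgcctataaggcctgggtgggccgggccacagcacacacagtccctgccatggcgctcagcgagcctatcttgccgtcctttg
Klf4: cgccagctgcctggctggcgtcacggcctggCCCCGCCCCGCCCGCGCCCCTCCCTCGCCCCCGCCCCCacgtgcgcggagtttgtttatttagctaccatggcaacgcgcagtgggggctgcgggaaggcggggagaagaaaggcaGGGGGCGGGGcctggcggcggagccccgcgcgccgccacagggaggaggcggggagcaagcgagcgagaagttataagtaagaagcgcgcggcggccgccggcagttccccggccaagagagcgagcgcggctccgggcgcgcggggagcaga
The motif matched 9 times in the Klf4 window and 4 times in that of Klf2. Among the others it matched 10 times in Klf3, 5 in Klf13, 3 in Klf6 and 0 in Klf9. Of 32851 mouse promoter windows of this length 49.5% held at least 1 match and 19.1% held 3 or more. The window of Klf5 was not among those used. TTCNNNGAA, the core that STAT proteins bind, matched once in Klf9 and in none of the other 5 windows, against 8.3% of all windows.

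Counted per kilobase of exon, Klf4 stood over Klf2 by 3.47 and 2.93 in WT, 2.98 and 1.7 in 41584, 2.52 and 1.62 in 41589 and 1.46 and 1.51 in SOM. The same ratio was 0.185 and 0.193 in KO and 0.171 and 0.174 in 41585. Klf2 was thus the gene with the highest level per length of the 7 in KO (91.6 CPM per kb) and 41585 (106), where Klf4 stood at 17.3 and 18.4. The summed level per length of Klf2, Klf4 and Klf5, the KLF genes known to overlap in ES cell self-renewal, differed far less. It was 122 and 113 CPM per kb in KO, 123 and 148 in 41585, 172 and 129 in WT and between 114 and 130 in SOM, 41584 and 41589. Klf4 made up 48.9 to 71.7% of that sum in the libraries of WT, SOM, 41584 and 41589 and 13.5 to 15% in KO and 41585, while Klf2 made up 20.7 to 33.9% and 77.6 to 78.7%. These are sums of mRNA levels with no test, they take Klf2 as counted with its GC trend in place, and they say nothing of protein.

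**Figure D2:**
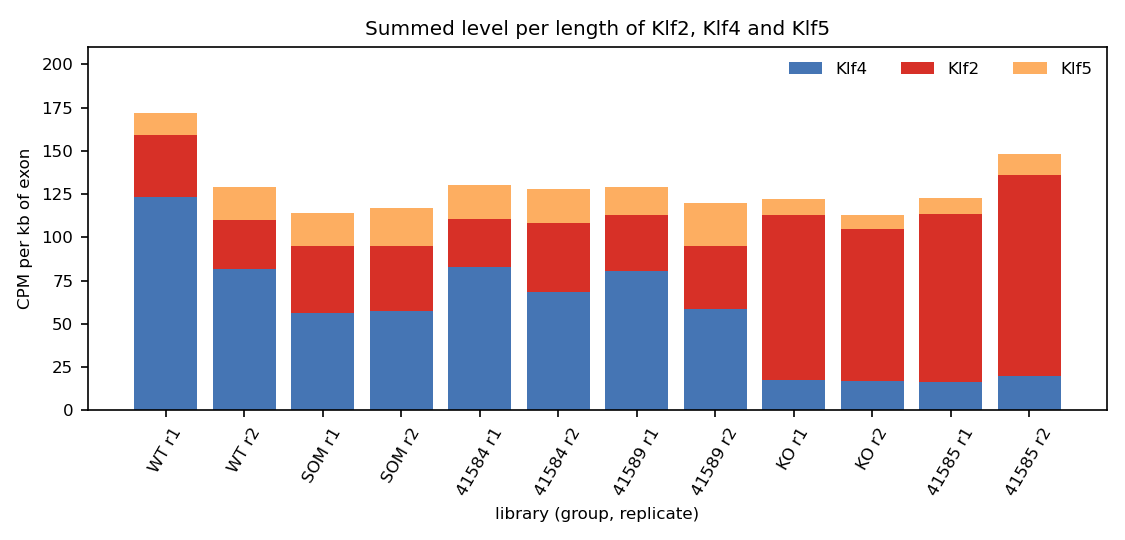
Level per length (CPM per kb of exon) of Klf4, Klf2 and Klf5, stacked, in each library (r1 and r2 are replicates 1 and 2). The stacks of KO and 41585 reach 113 to 148 CPM per kb, and those of the other libraries 114 to 172. Klf2 makes up 77.6 to 78.7% of them, and Klf4 48.9 to 71.7% of the others.

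Klf5, which is known from the inner cell mass and trophectoderm and from gut epithelium, lies on the plus strand at chr14:99298691-99315036. It read 47.7 and 43.6 CPM in KO and 49.6 and 60.8 in 41585. The other groups held 68.5 and 99.5 CPM in WT, 97.9 and 113 in SOM, 100 and 102 in 41584 and 84.5 and 129 in 41589. No library of KO or 41585 reached the lowest WT library, although the gap of 60.8 to 68.5 CPM was narrow. Klf5 fell 1.84-fold in KO against WT (log2 fold −0.88 ± 0.26, adjusted p = 0.0434) and 1.83-fold in 41585 against 41584 (−0.87 ± 0.26, adjusted p = 0.046). Both calls were at the edge of the 0.05 threshold: each was lost whichever of its 4 libraries was left out (adjusted p 0.081 to 0.253 and 0.0795 to 0.252). With the GC and length trend removed the second was also lost (−0.82, adjusted p = 0.0538). In 41585 against WT it was not called (−0.61 ± 0.26, 95% interval −1.17 to −0.04, adjusted p = 0.0915). The pooled comparison gave −0.95 ± 0.17 (adjusted p = 0.00144), and that call held without any 1 of its 10 libraries.

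Klf6 and Klf13 rose. Klf6, induced by serum and injury in many cell types, lies on the plus strand at chr13:5861482-5870394. It read 61.4 and 52.7 CPM in WT, 48.3 and 56.6 in 41584, 54.7 and 42.0 in 41589 and 32.6 and 53.7 in SOM. KO held 144 and 156 CPM and 41585 held 97.2 and 94.3, so KO stood above 41585 and 41585 above the rest without overlap. Klf6 rose 2.64-fold in KO against WT (log2 fold 1.40 ± 0.26, adjusted p = 0.00611) and 1.83-fold in 41585 against 41584 (0.87 ± 0.26, adjusted p = 0.0441). Leaving out either WT library ended the first call (adjusted p = 0.0552 without replicate 1 and 0.0556 without replicate 2), and leaving out any 1 of its 4 libraries ended the second (0.0714 to 0.183). In 41585 against WT Klf6 rose 1.68-fold (0.75 ± 0.26, adjusted p = 0.0439), again with no call once a library was left out (0.129 to 0.182). With the GC and length trend removed the folds were larger, 1.62 and 1.24 (adjusted p = 0.000444 and 0.00217). Klf6, at 42.4% GC, moved against the genes of its own GC content, whose medians were −0.24 and −0.44.

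Klf13, whose product is known for repression through Sin3a and for a role in T cells, lies on the minus strand at chr7:63886351-63938915 and was the lowest of the 7 by level per length in WT (4.25 CPM per kb). It read 35.1 and 28.9 CPM in WT, 38.4 and 36.5 in 41584, 35.5 and 55.4 in 41589 and 37.9 and 47.3 in SOM. KO held 80.0 and 64.8 CPM, and 41585 held 85.9 and 90.4. All 4 lay above the highest of the others, replicate 2 of 41589. Klf13 rose 2.27-fold in KO against WT (log2 fold 1.18 ± 0.26, adjusted p = 0.0136) and 2.35-fold in 41585 against 41584 (1.23 ± 0.26, adjusted p = 0.0123). The first call ended when either WT library was dropped (adjusted p = 0.0802 without replicate 1 and 0.0905 without replicate 2) and when KO replicate 1 was dropped (0.146). The second ended when either 41585 library was dropped (0.0655 and 0.0724). In 41585 against WT it rose 2.76-fold (1.46 ± 0.26, adjusted p = 0.00359), and that call stood without any 1 of the 4 libraries. Klf13 is 55.5% GC, and tested genes of like GC had medians of 0.25 and 0.50 in these comparisons. Its calls stood with the trend removed (1.05, adjusted p = 0.00806, and 0.82, adjusted p = 0.0289).

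Klf3, a repressor that works through the corepressor CtBP, lies on the plus strand at chr5:64803388-64832901. It read 201 and 157 CPM in WT, 150 and 150 in 41584, 147 and 121 in 41589 and 89.1 and 140 in SOM. KO held 238 and 272 CPM and 41585 held 198 and 239. The lower 41585 library was just under the higher WT library, so the groups overlapped. Klf3 was not called in KO against WT (log2 fold 0.51 ± 0.25, 95% interval −0.03 to 1.06, adjusted p = 0.191) or in 41585 against 41584 (0.54 ± 0.25, −0.00 to 1.09, adjusted p = 0.158). It was called in the pooled comparison, 1.54-fold higher (0.62 ± 0.16, adjusted p = 0.0104). With the GC and length trend removed it was called in KO against WT (0.67, adjusted p = 0.0221), 41585 against 41584 (0.74, adjusted p = 0.0186) and 41585 against WT (0.61, adjusted p = 0.027). Gm20033 overlaps 404 bases of Klf3 on the opposite strand and had at most 4 reads in a library.

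Klf9, a glucocorticoid- and thyroid hormone-responsive gene of the same BTEB subgroup as Klf13, lies on the plus strand at chr19:23141226-23168134. It read 199 and 158 CPM in WT, 157 and 157 in 41584, 156 and 134 in 41589 and 102 and 134 in SOM. KO held 127 and 124 CPM and 41585 held 109 and 142. KO lay under WT without overlap, but the SOM libraries were also low, replicate 1 under every KO and 41585 library. In none of the 14 comparisons was Klf9 called. In KO against WT the log2 fold was −0.50 ± 0.23 (95% interval reaching up to −0.01, adjusted p = 0.162) and in the pooled comparison −0.35 ± 0.15 (−0.67 to −0.02, adjusted p = 0.091). A fit of the KO and WT libraries alone did call it (−0.49, adjusted p = 0.0399), as it did Klf3 (0.52, adjusted p = 0.0342). That fit called all 7 KLF genes and 4892 of the 13635 genes it tested.

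In KO against WT 5 of the 7 genes were called, 3 higher and 2 lower, where 13.2% of the 14629 genes tested were called (7.29% higher and 5.9% lower). The median log2 fold of the 7 was 0.51 beside −0.00 over all genes tested. The count of 5 was also that of DESeq2, and it lay between 2 and 4 when 1 library was left out. In 41585 against 41584 the same 5 genes were called in the same directions (against 12.7% of all genes, 7.65% higher and 5.07% lower), and the count lay between 2 and 3 with 1 library left out. In 41585 against WT 4 were called, Klf2, Klf6 and Klf13 higher and Klf4 lower, against 29.2% of all genes (16.3% higher and 12.9% lower). With KO and 41585 pooled against WT, 41584 and 41589, 6 were called, 4 higher and 2 lower, against 33.5% of all genes (17.6% higher and 15.9% lower), and each of the 6 stood whichever of the 10 libraries was left out. For 5 of the 7 (Klf2, Klf4, Klf5, Klf6 and Klf13) the CPM of the 4 KO and 41585 libraries did not overlap that of the other 8, which was so for 17.8% of all tested genes (10.2% higher and 7.56% lower in KO and 41585). The 7 genes were chosen with earlier results of these data known, so their counts beside these shares are no test.

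**Figure D3:**
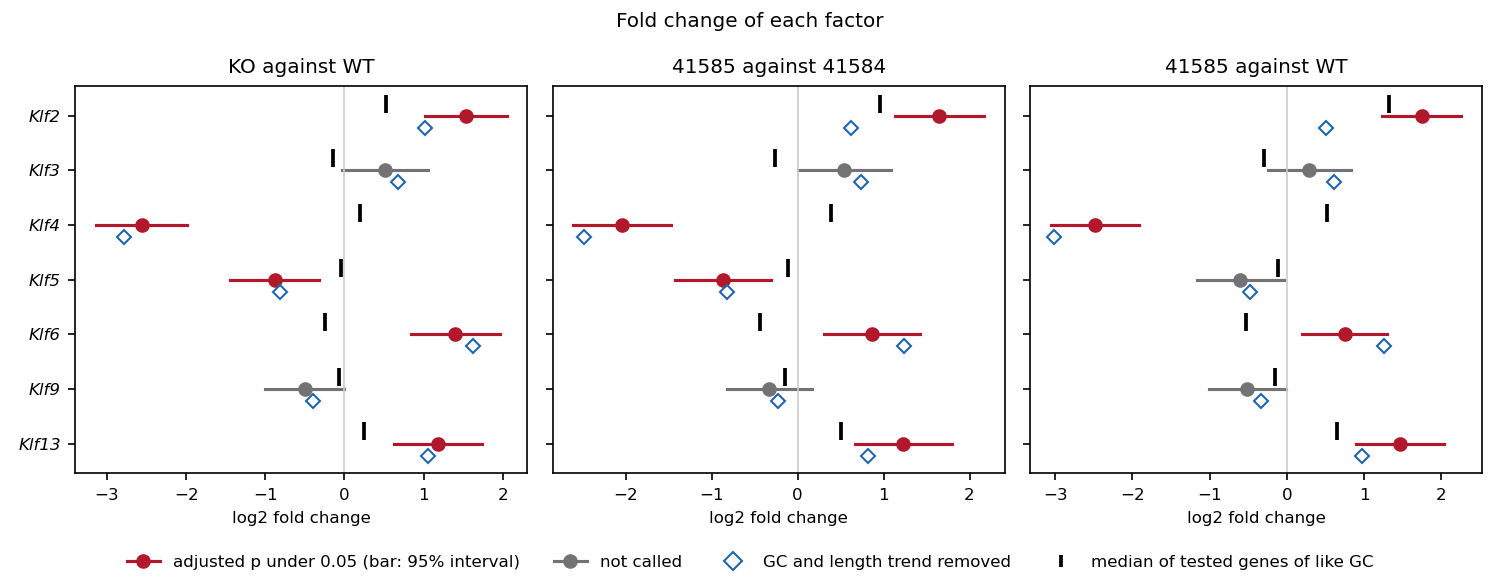
Log2 fold change of each KLF gene in KO against WT, 41585 against 41584 and 41585 against WT. Filled circles are the fitted values with 95% intervals, red where adjusted p was under 0.05; open diamonds are the values with the GC and length trend removed, and black ticks the median of tested genes of like GC content. For Klf2 the diamonds sit well to the left of the circles (1.02 against 1.53, 0.62 against 1.65 and 0.50 against 1.75), while those of Klf4 and Klf6 lie farther from 0 than the circles.

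The change in KO against WT was set against that in 41585 against 41584 by an interaction test. No KLF gene was called in it, and none reached an unadjusted p under 0.05, with 0% of genes called by edgeR, 419 genes at an unadjusted p under 0.05 and 1 gene called by DESeq2. The intervals were wide. The difference was −0.52 for Klf4 (95% interval −1.30 to 0.25), 0.53 for Klf6 (−0.25 to 1.31) and −0.12 for Klf2 (−0.83 to 0.59), and the intervals of Klf4 and Klf6 reach past 1 log2 unit on one side. In 41585 against KO, 0 of the 7 and 0% of all genes were called, with 995 genes at an unadjusted p under 0.05 and 1 called by DESeq2. Klf6 alone of the 7 passed that unadjusted level (−0.65 ± 0.25, 95% interval −1.20 to −0.10, adjusted p = 0.642). A fit of those 4 libraries alone called it (−0.64, adjusted p = 0.0438), among 545 genes called of 13392 tested there.

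Against KO, the lines with Dicer put back that are not described as lacking miRNA processing had higher Klf4 and Klf5 and lower Klf2 and Klf6. In SOM against KO, 5 of 7 were called (6.08% of all genes, 1.48% higher and 4.6% lower): Klf4 and Klf5 higher, by log2 folds of 1.72 ± 0.26 and 1.21 ± 0.26, and Klf2 (−1.26 ± 0.24), Klf3 (−1.15 ± 0.26) and Klf6 (−1.80 ± 0.26) lower. In 41584 against KO, 5 were called as well (7.44% of all genes, 2.46% higher and 4.98% lower), with Klf4 at 2.12 ± 0.26, Klf5 at 1.14 ± 0.26, Klf2 at −1.43 ± 0.24, Klf6 at −1.52 ± 0.26 and Klf13 at −0.95 ± 0.26 (adjusted p = 0.0424). In 41589 against KO, again 5 were called (7.09% of all genes, 2.44% higher and 4.65% lower), with Klf4 at 2.01 ± 0.26, Klf5 at 1.23 ± 0.26, Klf2 at −1.42 ± 0.24, Klf3 at −0.93 ± 0.25 (adjusted p = 0.0449) and Klf6 at −1.64 ± 0.26. These comparisons share the KO libraries, so their likeness is in part that of KO with itself. The calls of Klf4 and Klf6 stood in each of the 3 whichever library was left out. Klf2 in SOM against KO was no longer called on dropping KO replicate 1 (adjusted p = 0.0995), SOM replicate 1 (0.1) or SOM replicate 2 (0.0647), nor in 41589 against KO on dropping KO replicate 1 (0.0526). Klf5 in SOM against KO, Klf13 in 41584 against KO and Klf3 in 41589 against KO were each lost whichever of 4 libraries was dropped (0.0931 to 0.164, 0.0985 to 0.342 and 0.0732 to 0.226). Klf3 in SOM against KO and Klf5 in 41584 and 41589 against KO kept their call in 1 of 4 such fits each. With the GC and length trend removed Klf2 was not called in SOM against KO (−1.32, adjusted p = 0.0685) or in 41584 against KO (−1.14, adjusted p = 0.0987). These folds stood beside −1.26 and −1.43 before removal. In 41589 against KO Klf2 kept its call (−1.46, adjusted p = 0.0445, beside −1.42 before).

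**Figure D4:**
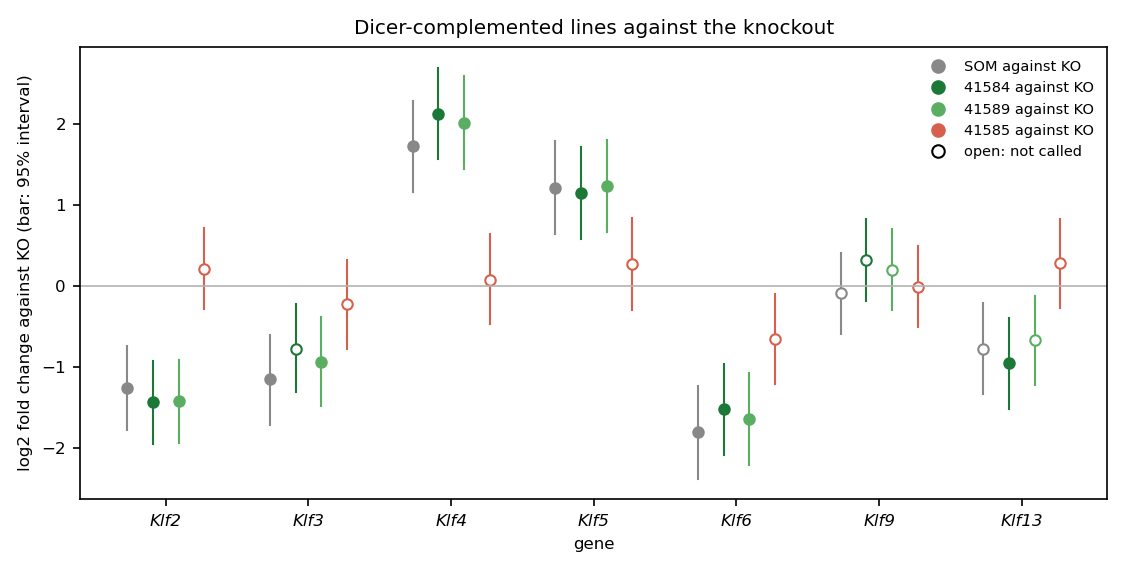
Log2 fold change of each KLF gene in SOM, 41584, 41589 and 41585 against KO, with 95% intervals. Filled points were called and open points were not. Klf4 sits at 1.72, 2.12 and 2.01 in SOM, 41584 and 41589 and at 0.08 in 41585.

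41589 is labelled as lacking siRNA processing and 41585 as lacking the processing of miRNAs too. Between them 5 of 7 genes were called (8.33% of all genes, 3.11% higher and 5.22% lower), Klf4 (log2 fold 1.93 ± 0.26 in 41589 over 41585) and Klf5 (0.95 ± 0.26) higher in 41589, and Klf2 (−1.64 ± 0.24), Klf6 (−0.99 ± 0.26) and Klf13 (−0.95 ± 0.26) lower. Klf4 and Klf2 were called whichever of the 4 libraries was dropped, Klf5 and Klf13 in 1 of 4 such fits and Klf6 in 0. With the GC and length trend removed Klf2 was not called (−0.94, adjusted p = 0.164). Between 41589 and 41584 none of the 7 was called, none passed an unadjusted p of 0.05, and 0% of all genes were called by edgeR (103 at an unadjusted p under 0.05, 0 by DESeq2). The intervals there bound the difference for each gene. The highest upper bound of the 7 was that of Klf13 (0.28, −0.28 to 0.84) and the lowest lower bound that of Klf3 (−0.16, −0.71 to 0.38), and Klf4 gave −0.11 (−0.66 to 0.43).

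Against WT, none of the 7 was called in SOM, 41584 or 41589, where edgeR called 0% of all genes. With 1 library left out, up to 1, 106 and 647 genes were called. DESeq2 called 660, 27 and 74 genes in these comparisons, and 3175, 706 and 1719 genes had an unadjusted p under 0.05. In SOM 3 KLF genes passed that unadjusted level: Klf4 (−0.84 ± 0.25, 95% interval −1.39 to −0.30, adjusted p = 0.144), Klf3 (−0.64 ± 0.25, −1.19 to −0.09) and Klf9 (−0.59 ± 0.23, −1.09 to −0.09). Klf4 in SOM was called by DESeq2 (−0.83, adjusted p = 0.0496) and by a fit of the SOM and WT libraries alone (−0.80, adjusted p = 0.0282). The latter fit called 2035 of the 12956 genes it tested. In 41589 Klf4 passed the unadjusted level too (−0.55 ± 0.25, −1.10 to −0.01), and in 41584 no KLF gene did. Klf4 was ordered WT, 41584, 41589, SOM, 41585 and KO by mean CPM (312, 230, 213, 174, 56 and 52.8). WT and 41584 overlapped, as did 41584 and 41589, and 41585 and KO. Klf2 was ordered 41585, KO, SOM, 41589, 41584 and WT (196, 169, 70.9, 63.2, 62.6 and 58.6), with overlap among 41589, 41584 and WT and of SOM with 41584.

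Matches to miRNA seeds were looked up in the 3' UTRs because the lines differ in miRNA processing. No miRNA was measured here, so a match is only a stretch of letters. The miRNAs shown are those of the miR-290, miR-17 and miR-92 families known to be abundant in mouse ES cells, from RefSeq (GRCm38.p6), with the seed (bases 2 to 8) in capitals. miR-294 and miR-295 share a seed, as do miR-17 and miR-93, and the former seed is the latter shifted by 1 base.
miR-294-3p: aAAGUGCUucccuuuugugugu
miR-295-3p: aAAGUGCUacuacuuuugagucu
miR-17-5p: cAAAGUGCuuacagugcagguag
miR-93-5p: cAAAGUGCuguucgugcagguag
miR-92a-3p: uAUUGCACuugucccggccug
A site is the reverse complement of the seed, or of bases 2 to 7 followed by A. For miR-290 these are AGCACTT and GCACTTA. Of 12920 tested genes with a 3' UTR of at least 50 bases, 22% held such a site, at a median UTR length of 1365 bases. Klf3, Klf6 and Klf13 held one, at chr5:64832470-64832476 (plus), chr13:5869936-5869942 (plus), chr7:63890967-63890973 (minus) and chr7:63889075-63889082 (minus), here with flanking bases on either side and the match in capitals.
Klf3: caaatactAGCACTTttttttcct
Klf6: aaaatcctAGCACTTgatttgctg
Klf13, first: accatgggAGCACTTgcctatgga
Klf13, second: ccaaagagAGCACTTAatttaatt
Klf2, Klf4, Klf5 and Klf9 held none. The UTRs differ in length, at 3743 bases in Klf3, 3111 in Klf6, 5157 in Klf13, 3222 in Klf9, 1841 in Klf5, 982 in Klf4 and 737 in Klf2, and long UTRs hold more matches by length alone. In the pooled comparison the log2 folds of the holders were 0.62 (Klf3), 1.19 (Klf6) and 1.08 (Klf13), those of the others 1.57 (Klf2), −2.19 (Klf4), −0.95 (Klf5) and −0.35 (Klf9).

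For the miR-17 family the sites are GCACTTT and CACTTTA, held by 22.7% of genes. Klf3, Klf6 and Klf9 held 1 each, that of Klf3 sharing 6 letters with its miR-290 match. For miR-25 and miR-92 the sites are GTGCAAT and TGCAATA, held by 14.2% of genes. Klf2, Klf3, Klf5 and Klf6 held 1 each and Klf4 held 2, so genes that rose and genes that fell both hold this site. The full matches of 8 letters in Klf2 (chr8:72321133-72321140, plus) and Klf4 (chr4:55527367-55527374, minus) are alike.
Klf2: tcaaaatgGTGCAATAattgactt
Klf4: tttcagatGTGCAATAatttgtac
Of the other families searched, let-7 matched in Klf9 and Klf13, and miR-15/16 in Klf13. miR-19 matched in Klf3, Klf6, Klf9 and Klf13, miR-130 in Klf3 and Klf13, miR-21 in Klf3, Klf5 and Klf6, and miR-223, known from myeloid cells, in Klf9.

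**Figure D5:**
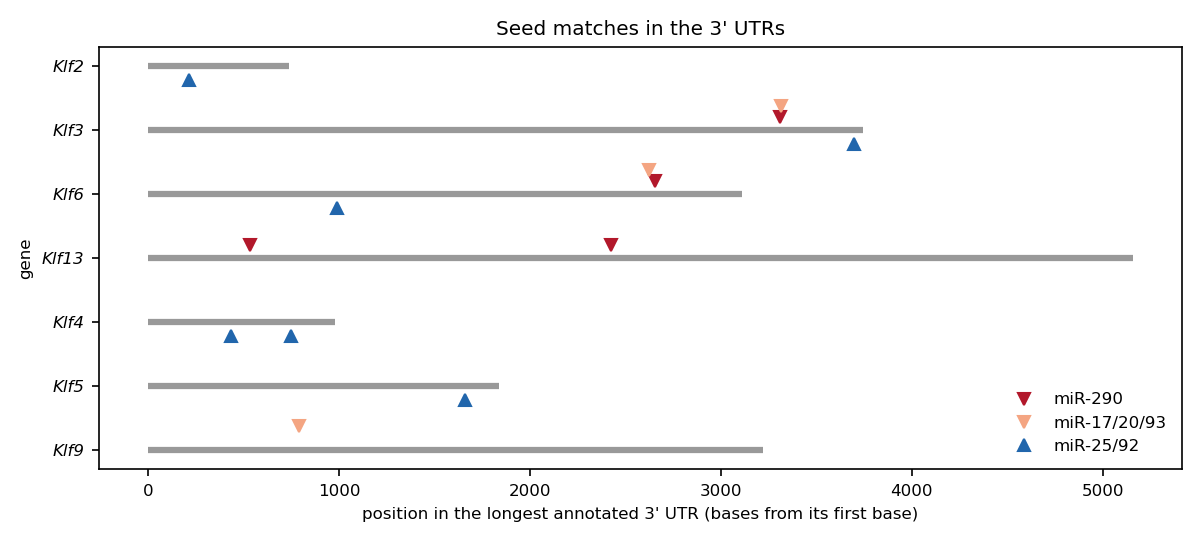
Matches to the miR-290, miR-17 and miR-25/92 seeds along the longest annotated 3' UTR of each gene, in bases from its first base, with genes that rose (or, for Klf3, rose in the pooled comparison) above Klf4, Klf5 and Klf9. Red miR-290 matches appear in Klf3, Klf6 and Klf13, and blue miR-25/92 matches in Klf2, Klf3, Klf6, Klf4 and Klf5.

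Of 10 other KLF genes 8 were tested, since Klf1 and Klf14 had too few reads. In KO against WT 1 rose and 0 fell, where 13.2% of all tested genes were called. The riser was Klf7, a neuronal KLF gene, at 16.5 and 15.1 CPM in WT and 41.6 and 50.6 in KO (log2 fold 1.54 ± 0.31, adjusted p = 0.00935), and its KO and 41585 libraries (23.5 to 50.6 CPM) did not overlap the others (11.5 to 19.7), a range looked up after its values were seen. The median log2 fold of the 8 was −0.41, beside −0.00 over all genes. In the pooled comparison, where 33.5% of all tested genes were called, Klf7 (1.06 ± 0.20, adjusted p = 0.00161) and Klf16 (0.67 ± 0.22, adjusted p = 0.0326) rose and Klf12, a repressor, fell (−1.57 ± 0.31, adjusted p = 0.00241). Klf8 and Klf10, at mean levels of 71.2 and 141 CPM in KO and 41585, gave 0.24 ± 0.19 and 0.07 ± 0.19 there and were not called. In 41585 against 41584, where 12.7% of all tested genes were called, 0 of the 8 rose and 1 fell, Klf12 (−2.03 ± 0.47, adjusted p = 0.0182). Klf7 was not called in that comparison (0.62 ± 0.31, adjusted p = 0.188). The SP genes encode zinc finger proteins that bind the same boxes. Of 9, 5 were tested, and 0 rose and 1 fell in KO against WT (13.2% of all tested genes), Sp4 (29.8 and 21.7 to 11 and 11.1 CPM, −1.22 ± 0.38, adjusted p = 0.0489). SOM was also low in Sp4, at 9.6 and 15.6 CPM, and 41585 against 41584 gave no call (−0.73 ± 0.37, adjusted p = 0.194). The most abundant SP gene, Sp1, gave −0.66 ± 0.27 in KO against WT (adjusted p = 0.119), and was called lower in the pooled comparison (−0.55 ± 0.18, adjusted p = 0.029). Sp1 lay at 462 and 472 CPM in KO and 340 and 360 in 41585. SOM held 393 and 460, 41589 held 629 and 337, 41584 held 568 and 598 and WT held 804 and 673.

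Partners of the KLF genes in the pluripotency network were all tested, 18 of 18. In KO against WT 0 rose and 2 fell, near the 13.2% of all tested genes called, and their median log2 fold was −0.24. Tcl1, a cofactor of AKT, fell from 46.7 and 73.8 to 11.8 and 13.5 CPM (−2.25 ± 0.37, adjusted p = 0.00355). Tbx3, a T-box factor of the naive state, fell from 276 and 224 to 121 and 133 CPM (−0.98 ± 0.25, adjusted p = 0.023). In the pooled comparison (33.5% of all tested genes called) 3 rose (Fgf4 at 1.03, Pou5f1 at 0.89 and Prdm14 at 0.69) and 5 fell (Gbx2 at −2.15, Tcl1 at −1.59, Tbx3 at −1.07, Nr5a2 at −0.60 and Zfp42 at −0.50). Esrrb, an orphan nuclear receptor, and Nanog gave −0.24 ± 0.15 and −0.27 ± 0.15 there and were not called. In 41585 against 41584, where 12.7% of all tested genes were called, 3 of the 18 rose (Fgf4, Prdm14 and Dppa3) and 2 fell (Gbx2 and Tbx3). Dppa3 gave 2.16 ± 0.62 there (adjusted p = 0.0407) and −0.94 ± 0.59 in KO against WT (adjusted p = 0.306). Of the partners called in the pooled comparison, only Tbx3 was called in both KO against WT and 41585 against 41584. Prdm14 and Nr5a2 gave 0.08 ± 0.30 and 0.05 ± 0.31 in KO against WT (adjusted p = 0.886 and 0.935). Pou5f1 was called in neither KO against WT (1.07 ± 0.44, adjusted p = 0.119) nor 41585 against 41584 (1.29 ± 0.44, adjusted p = 0.0684).

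Of 22 genes of LIF-STAT3 and ERK signalling all were tested, and 2 rose and 1 fell in KO against WT, near the 13.2% of all tested genes called, with a median of 0.18. Egr1, an immediate early gene of ERK signalling, rose from 26.9 and 28.1 to 139 and 123 CPM (2.25 ± 0.35, adjusted p = 0.00242), although SOM held 102 and 105, 41589 held 72.7 and 113 and 41584 held 38.9 and 86.9. It was not called in 41585 against 41584 (0.96 ± 0.34, adjusted p = 0.0729). Mef2d, a MADS-box factor, rose (1.23 ± 0.31, adjusted p = 0.0225), and Spry2, a feedback inhibitor of receptor tyrosine kinases, fell from 72.4 and 70.2 to 30.4 and 29.3 CPM (−1.26 ± 0.26, adjusted p = 0.00925). Stat3 itself lay at 54 and 71.9 CPM in WT and at 63.7 and 65.1 in KO (0.03 ± 0.29, 95% interval −0.60 to 0.66, adjusted p = 0.955), and Socs3, a STAT3 target and inhibitor, gave −0.75 ± 0.35 (−1.52 to 0.01, adjusted p = 0.173). In the pooled comparison (33.5% of all tested genes called) 6 rose, among them the shared receptor subunit Il6st (0.95 ± 0.17, adjusted p = 0.00158), and 3 fell (Spry4, Spry2 and Etv4). Of 16 KLF cofactors and turnover genes all were tested. In KO against WT 1 rose, the deacetylase gene Hdac1 (108 and 145 to 264 and 222 CPM, 0.94 ± 0.28, adjusted p = 0.0464), and 0 fell, against 13.2% of all tested genes called. Hdac1 also lay at 280 and 236 CPM in SOM, 132 and 225 in 41584 and 159 and 225 in 41589. It was not called in 41585 against 41584 (0.60 ± 0.28, adjusted p = 0.163). Sin3b, a scaffold of deacetylase complexes, was called in 41585 against 41584 (1.63 ± 0.35, adjusted p = 0.0136) and in the pooled comparison (1.20 ± 0.22, adjusted p = 0.00143). Ctbp1 and Ctbp2, the partners of Klf3, and Sin3a, that of Klf9 and Klf13, were not called in any of these 3 comparisons.

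Markers of other cell types also differed between KO and 41585 and the other libraries. The summed level of 8 primitive endoderm markers was 29.6 to 45.4 CPM in the KO and 41585 libraries and 56.8 to 187 in the others, with Foxa2 under 1 CPM throughout. Most of it was Lama1, which averaged 29.9 CPM in KO and 41585 and 81.6 in WT, 41584 and 41589. Of the 6 tested, 5 fell and 0 rose in the pooled comparison, where 33.5% of all tested genes were called (17.6% higher and 15.9% lower). The other, Gata4, lay higher in KO and 41585 without a call (0.91 ± 0.47, adjusted p = 0.147). The summed level of 4 neuroectoderm markers was 46.6 to 62.7 CPM against 14.7 to 28.3, of which Nes held 40 to 56.4 and 12.4 to 22.1, with Zic1 under 1 CPM. Of the 3 tested, Nes and Pax6 rose and Sox1 fell in the pooled comparison (log2 folds 1.41, 2.71 and −1.51, adjusted p = 0.000318, 0.000908 and 0.0197), beside the same 33.5% of all tested genes. That comparison leaves SOM out, and Pax6 in SOM (3.94 and 2.44 CPM) overlapped KO (4.39 and 3.08). The summed level of 5 mesendoderm markers was 3.39 to 5.85 CPM against 7.33 to 11.4, with Gsc and Mesp1 under 1 CPM. Most of it was Eomes (2.93 to 4.8 CPM against 6.01 to 8.4), which is on the trophectoderm list too. The sums of 7 trophectoderm markers (26.1 to 63.9 against 31.2 to 84.4 CPM, Cdx2 under 1) and 8 fibroblast markers (8.93 to 18.3 against 8.71 to 41.2 CPM, Col1a2, Col3a1, Dcn, Lum and Postn under 1) overlapped. Tfap2c alone held 20.3 to 73.8 CPM of the trophectoderm sum. Of the 5 trophectoderm markers tested, 2 rose and 1 fell in the pooled comparison (33.5% of all tested genes called). Elf5 (3.99 ± 0.71, adjusted p = 0.0012) and Hand1 (2.80 ± 0.55, adjusted p = 0.00229) rose, to means of only 3.87 and 1.36 CPM in KO and 41585. Eomes fell (−0.98 ± 0.26, adjusted p = 0.0126). The 10 ES cell markers summed to 6786 to 7494 CPM against 6004 to 7120. In KO against WT, where 13.2% of all tested genes were called, 0 of them rose and 1 fell, Lin28a (121 and 211 to 18.5 and 24.2 CPM, −2.96 ± 0.37, adjusted p = 0.000651). The part of these cell types in the KLF levels was not tested.

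Genes whose log2 CPM followed each KLF gene were found by Pearson's r over the 12 libraries among 9975 tested genes with a mean of at least 5 CPM. The values are a description with no p, since the libraries share 6 groups and any gene that separates KO and 41585 from the rest correlates. For Klf4 they were Ccdc112 (0.986), Zfp664 (0.984) and Fam213a (0.984). For Klf2 they were C1qtnf9, Erap1 and Dock2, each at 0.981. Klf3 was followed by Ankib1 (0.993) and Eea1 (0.968), and Klf5 by Eif4ebp2 (0.962), Pip4k2b (0.956) and Akr1b8 (0.953). Elf1 (0.979), Tmem123 (0.973) and Cxadr (0.973) followed Klf6, and Lrmp (0.976), Pde1b (0.972) and Cachd1 (0.971) followed Klf13. Klf9 had Znrf2 (0.961), Twsg1 (0.958) and Atp2b1 (0.957). No KLF gene was among those named for another.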

How the data were processed

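Poly(A) RNA of 12 ES cell libraries (2 in each of 6 groups) was prepared with a TruSeq kit and sequenced on a HiSeq2000, per the labels. Reads were mapped with STAR 2.4.2a to mm10, per the submitters' processing notes, and the authors deposited the raw read count of each of 47643 Ensembl genes in each library. The counter and annotation release were not given in the sources used here. From these counts, genes were filtered by filterByExpr (14629 left, all 7 KLF genes among them), scaled by TMM (factors 0.9039 to 1.0791) and tested with edgeR 4.0.16 (limma 3.58.1, R 4.3.3) by the robust quasi-likelihood test, with 1 mean for each of the 6 groups, all 12 libraries in the fit and Benjamini-Hochberg adjustment over all genes tested. There were 14 comparisons. Depth was 5348401 to 10428509 counted reads per library. Intervals rest on the spread between the 2 libraries of a group, taken over all 6 groups and drawn towards that of other genes. Alternatives were RLE size factors, no filter on low counts, DESeq2 1.42.0, only the groups compared, a replicate block, SOM added to the pooled groups, each library left out, and the loess trend (span 0.3) of each library on exon GC and length removed. Medians of genes of like GC were added after the data were seen. Scripts were tested on simulated data. Exon and UTR annotation was GENCODE M21 (GRCm38), and miRNAs and promoters came from RefSeq (GRCm38.p6). The KLF genes and all gene lists were chosen with earlier results of these data known. The rule for named genes was the 7 KLF genes and Dicer1, up to 4 members of each other list by adjusted p in KO against WT, any others needed to state what a list did, and the 3 genes that correlated best with each KLF gene over log2 CPM (prior count 2), of which 1 is not reported here. Marker genes named outside it were chosen after their values were seen.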

Additional observations from a re-analysis of the deposited data

How the results depend on the processing

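Of 1057 log2 folds of single KLF genes recomputed under another setting, 73 lost a call, 12 gained one and the others stayed on their side of the threshold. No called fold changed sign, and 52 that were called under neither setting did. RLE size factors and no filter on low counts left the KLF genes called at 5 in KO against WT and 6 in the pooled comparison, and so did SOM added for the latter. With only the groups compared in the fit, 7 of the 7 KLF genes were called in KO against WT (4892 of 13635 genes tested). In 41585 against 41584 it was 3 (403 of 13368) and in 41589 against 41585 it was 2 (563 of 13877). It was 1 in 41585 against KO (545 of 13392) and 1 in SOM against WT (2035 of 12956). DESeq2 also called 1 in SOM against WT (660 of 12450). Those smaller fits called Klf13 in SOM against KO (adjusted p = 0.0371). They lost Klf13 in 41584 against KO (0.0773) and Klf3 in 41589 against KO (0.0595). The cause was not tested. With 1 library left out, the KLF genes called numbered 2 to 4 in KO against WT, 2 to 3 in 41585 against 41584, 3 to 3 in 41585 against WT, 2 to 3 in SOM against KO, 3 to 4 in 41584 against KO, 2 to 4 in 41589 against KO, 2 to 3 in 41589 against 41585 and 6 to 6 in the pooled comparison. Fewer samples entered those fits. Replicate numbers were not taken to pair the libraries, since the labels give them no shared source and deviations of same-numbered libraries correlated at −0.0832 to 0.508 over 15 pairs of groups, over 0.1 in 5 of them (0.325 for 41584 and 41585). With the replicate block 5 KLF genes were called in KO against WT, and no comparison's count of KLF genes changed. Over all genes the block gave 2346 calls there in place of 1929. Over all genes KO against WT gave 2950 calls with no filter on low counts, 4892 with only the groups compared and 237 to 606 with 1 library left out. For 41585 against 41584 the 1861 calls became 3073 with no filter, 403 with only the groups compared and 348 to 1820 with 1 library left out. SOM against KO (889) gave 1544 with no filter, 2265 with only the groups compared and 1568 with the GC and length trend removed, 41584 against KO (1088) gave 1858, 384 and 1855, and 41589 against 41585 (1219) gave 2271, 563 and 1775. For 41589 against KO (1037) no filter gave 1768 and the trend removed 1831. With no filter, SOM against WT gave 1345, 41584 against WT 132, 41589 against WT 541, 41585 against KO 119 and the interaction 69 in place of 0. With only the groups compared, SOM against WT gave 2035 and 41585 against KO 545. With 1 library left out, all-gene counts were 419 to 2711 in 41585 against WT (4274), 0 to 647 in 41589 against WT, 0 to 106 in 41584 against WT, 107 to 368 in SOM against KO, 203 to 1332 in 41584 against KO, 186 to 694 in 41589 against KO, 306 to 2435 in 41589 against 41585 and 2727 to 6205 in the pooled comparison (4906). Of the 21 genes named as like a KLF gene, 19 were named with a prior count of 0.5 too. With 2 libraries a group and 190 to 2426 reads per KLF gene, the spread between libraries limits what can be called.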
